A study of Mus musculus with 24 samples.

Results

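Mammary tissues of 3 sham BALB/c mice were compared with those of 3 sham SPRET/EiJ mice, all collected 4 weeks after the sham exposure. These 6 arrays, out of 24 in the series, are the groups whose labels read sham, 4 weeks and either strain. All mice were female and were 8 to 9 weeks old at exposure, and none of the 6 received radiation. Each array held the RNA of 1 mouse. SPRET/EiJ mice descend from wild-caught Mus spretus, a species apart from the house mouse to which the BALB/c laboratory strain belongs. Another 4 groups of 3 arrays are used beside them: BALB/c and SPRET/EiJ mice 4 weeks after a whole-body X-ray dose of 10 cGy (LDIR), and sham BALB/c mice at 2 and 8 weeks. BALB/c LDIR replicates B and C at 8 weeks are used where slides are compared, and all 24 arrays in 1 alternative fit. The labels give no stage of the estrous cycle.

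The adult virgin mammary gland is a thin tree of ducts embedded in a fat pad. Luminal cells line the ducts, carry most of the receptors for estrogen, progesterone and prolactin, and are wrapped by contractile myoepithelial cells. White adipocytes make up most of the tissue, and lymphocytes, macrophages and vessels lie between them. RNA of whole tissue sums all of these cells, so fewer cells of a type and less RNA per cell cannot be told apart. The labelled tissue had its defining markers: Adipoq, the adipocyte hormone adiponectin, lay at 7.42 to 8.29 and Krt18, a keratin of luminal cells, at 3.83 to 7.26 over the 6 arrays. These are log2 levels relative to the 75th percentile of the same array, the scale of every level below.

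Every gene is read through 60-base probes that were designed on the house mouse genome, so the strains were compared with genes whose probes agree. A probe was used when it was well above background on all 3 arrays of at least 1 strain. A gene was called when it had 2 or more such probes and every one of them differed in the same direction by more than 1.5-fold at an adjusted p under 0.05 (limma, Benjamini-Hochberg adjustment over all probes). Differences are BALB/c minus SPRET/EiJ, so a gene that was lower in BALB/c has a negative one. A gene's level is the mean of its probes, and the p given for a gene is the largest of its probes. How the probes of Me1, Churc1, Xaf1 and Cr2 behaved shows why. Their first 30 bases, written 5′ to 3′ with the mm9 position of the whole probe, were as follows.
Me1, chr9:86475077-86475136, minus strand: cctaatgacaacttgtgactaacggtttct
Me1, chr9:86475215-86475274, minus strand: ttctgtgtatctagagactcctgactttga
Me1, chr9:86480571-86480630, minus strand: aggccggctctatcctcctttgaataccat
Churc1, chr12:77876591-77876650, plus strand: gaactgtcatcatgtagtagccagacacga
Churc1, chr12:77883904-77883963, plus strand: ttctcttgtaactgtgttggcttgctttaa
Xaf1, chr11:72122169-72122228, plus strand: ccttcaacccttgcatttatggactctgga
Xaf1, chr11:72127175-72127234, plus strand: tctgtatttctggaccacagtcactcattt
Cr2, chr1:196963012-196963071, minus strand: catgacaataatggactagaactctgaact
Cr2, chr1:196965532-196965591, minus strand: tggcctacagattgttcttgtgatatttca

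Probes of 1 gene could give opposite answers. Me1 encodes the cytosolic malic enzyme, which makes NADPH for fat synthesis. The pair of neighbouring Me1 probes put it 13.57 and 12.56 log2 units higher in BALB/c, with 1 of 3 SPRET/EiJ arrays above background, while the probe at 86480571 read 6.29, 6.15 and 4.90 in BALB/c and 7.21, 6.61 and 6.17 in SPRET/EiJ. That last difference, -0.88, did not pass the test (adjusted p = 0.242). The Churc1 probe at 77883904 read 2.48, 2.90 and 2.54 in BALB/c and was above background on no SPRET/EiJ array, whereas its partner at 77876591 was lower in BALB/c by a difference of -0.78 (adjusted p = 0.0378). For Xaf1, an interferon-induced regulator of cell death, the difference was 1.83 with 1 probe and -6.01 with the other, and all 6 arrays were above background with both. The Cr2 probes, by contrast, gave -5.58 and -5.61. The same split between probes was found for Dtymk, the thymidylate kinase, for the synaptic gene Nrxn3 and for Rab10os. Each had a probe lower in BALB/c, by -0.74, -0.78 and -0.96, and a probe above background on no SPRET/EiJ array, where BALB/c was at least 90.0-fold, 86.4-fold and 12.9-fold higher. For the Churc1 probe at 77883904 that bound was 293-fold. In all, 138 coding genes had probes called in opposite directions, and Churc1, Dtymk, Nrxn3, Xaf1 and Rab10os had the widest gaps between measured differences, which for all of these but Xaf1 rest on a value below background.

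Over the 4178 coding genes with 2 usable probes, the gap between the strain differences of the pair had a median of 0.51 and exceeded 1 log2 unit in 26.9% of genes. Between BALB/c sham mice at 2 and 8 weeks, with the same probes and the same number of arrays, the median gap was 0.32 and 10.6% of genes exceeded 1. Probes of lncRNA loci parted more in both settings, with 28.8% and 16.5% of 956 loci exceeding 1. Sequence differences between the Mus spretus genome and the probes were not tested, because no genome of that species was used here. The slides are a further limit: slide 1 carried BALB/c replicates A and B, slide 2 replicate C, and slide 3 all SPRET/EiJ arrays, so slide and strain cannot be told apart within the 6 arrays.

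**Figure D1:**
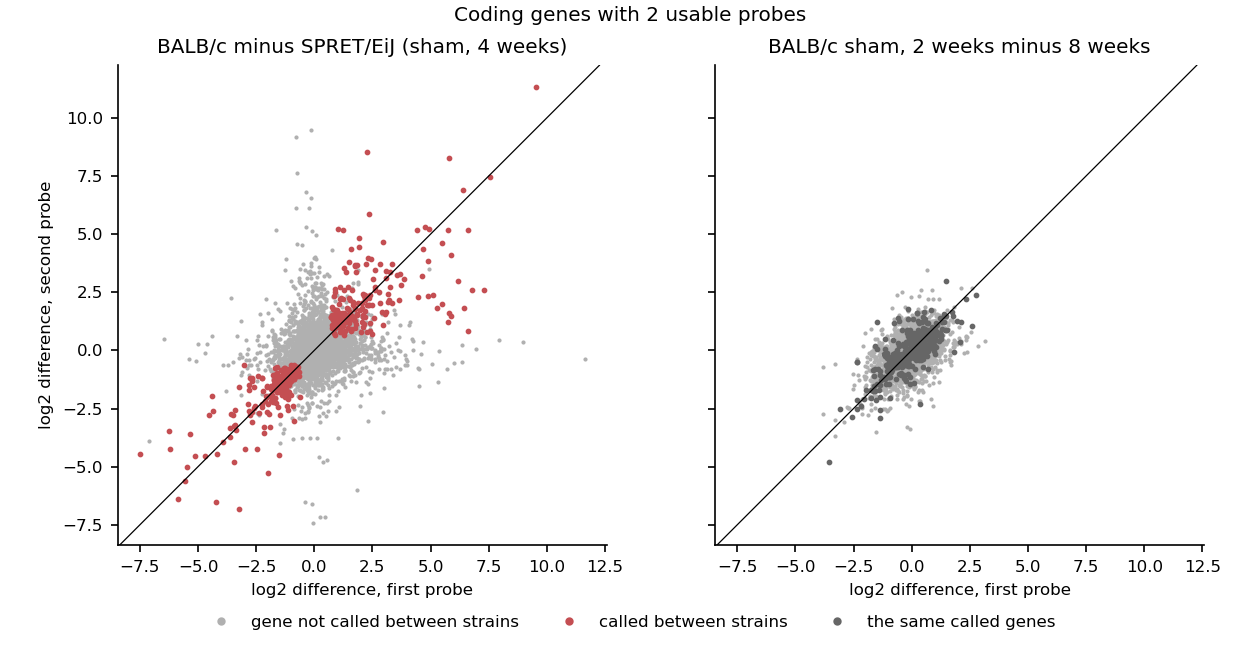
Log2 difference of the probe with the lower coordinate (x axis) against that of its partner (y axis) for the 4178 coding genes with 2 usable probes, between strains (left) and between BALB/c sham mice at 2 and 8 weeks (right). Red marks genes called between strains and dark grey the same genes on the right. Points on the diagonal have equal differences, and between strains many genes lie along an axis, where 1 probe differed and the other did not.

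Of 5274 coding genes with 2 or more usable probes, 421 were called, which is 7.98% of them. In BALB/c 210 were higher (3.98%) and 211 lower (4.00%). A further 1764 genes had some but not all of their probes called in 1 direction, and 2951 had none. On all 6 arrays above background were 128 of the higher and 178 of the lower genes. The probes of 64 of the 421 genes overlapped or lacked a position, so that 357 rested on probes that share no base. Among the 64 are Atp1a4, Aldh3b2, Dock11, Fabp3, Ramp3, Raet1c and Camp, named below. Their probes overlap, so their agreement is not that of separate target sequences. A fit of all 24 arrays with slide as a block left 14 higher and 14 lower genes. Leaving out 1 array at a time left 106 to 149 higher and 122 to 167 lower genes, the fewest without BALB/c replicate A and SPRET/EiJ replicate A. Correlations between arrays were 0.982 to 0.987 within a strain and 0.941 to 0.954 between strains.

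Among genes measured on all 6 arrays, the 10 per direction with the largest difference in their least changed probe are described. The rule also required that the strains did not overlap for any probe, which held for all 210 higher and 211 lower genes. Symbols that are only clone, RIKEN, Gm or accession numbers were left out. Of those left out, A130040M12Rik had the largest difference, 8.65 over 3 probes. Mup20 encodes darcin, a major urinary protein that acts as a male scent signal. Its level was 5.49, 5.97 and 5.06 in the BALB/c mice and -1.46, -2.86 and -0.28 in the SPRET/EiJ mice, a difference of 7.04 (adjusted p = 0.00164). The Mup genes are near-identical copies of each other, so the member that was read is uncertain. Aqp5, a water channel of glandular epithelium, stood at 3.93, 4.61 and 4.53 against -0.10, -1.73 and 0.55, with a difference of 4.79 (adjusted p = 0.0049). The secreted growth factor Ptn, pleiotrophin, had levels of 4.35 ± 0.44 (SD, n = 3) and 0.82 ± 0.92 (SD, n = 3).

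Tst, the thiosulfate sulfurtransferase rhodanese, read 3.82, 3.37 and 3.62 in BALB/c and -2.35, -0.73 and -1.30 in SPRET/EiJ, a difference of 5.06 (adjusted p = 8.04e-04). Cth, the cystathionine lyase that makes cysteine, was 3.10 higher with each of its probes (adjusted p = 0.00407). Atp1a4, a sodium pump subunit known from sperm, stood at 1.16, 1.41 and 0.99 against -4.51, -2.81 and -4.32. Aldh3b2, an aldehyde dehydrogenase, differed by 3.32, Pter by 3.13, the guanine exchange factor Dock11 by 2.68 and the galectin Lgals4 by 2.61. All 3 mice of BALB/c exceeded all 3 of SPRET/EiJ for every probe of these genes, as the rule required. Some genes stayed below background on every SPRET/EiJ array. There a bound sets the BALB/c mean against the lowest signal that counted as above background on each dim array. By that measure the BALB/c level of Mucl1, a small secreted mucin-like protein of breast and skin glands, exceeded that of SPRET/EiJ at least 17.0-fold. The cytochrome Cyp3a59 was at least 10.0-fold and the organic anion transporter Slco1a5 at least 5.58-fold higher, and for Arhgdig and Speer4b the bounds were 3.18-fold and 2.77-fold. Cyp3a59 and Speer4b belong to families of near-identical genes and are uncertain for that reason.

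By the same rule, the genes lower in BALB/c were led by Cr2 and Mest. Cr2, the receptor for C3d on B cells and follicular dendritic cells, stood at -3.0, -3.22 and -2.44 in BALB/c and 2.80, 2.71 and 2.61 in SPRET/EiJ. The difference was -5.60 (adjusted p = 1.44e-04), and it was -5.56 in LDIR mice. Against BALB/c LDIR mice of 8 weeks on the same slide as the SPRET/EiJ mice it was -2.82. Mest, a paternally expressed imprinted gene known to mark fat expansion, was at -3.38, -3.80 and -3.14 in BALB/c. In SPRET/EiJ it ranged widely, at 2.26, 4.14 and 0.08, and the difference of -5.60 passed the test with all 3 probes (adjusted p = 0.015).

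Pla2g2e, a secreted phospholipase of adipose tissue, read -3.43, -3.77 and -3.09 against 1.38, 1.27 and 1.56, a difference of -4.83 (adjusted p = 1.68e-04). Mlip, a lamin-interacting protein of muscle, was lower by -5.25, a direction that the markers of skeletal muscle given below did not share. Fabp3, a fatty acid carrier of heart and brown fat, was lower by -4.63, Ramp3, a partner of the adrenomedullin receptor, by -3.94, and the carbonyl reductase Cbr2 by -3.67. Hpgd, which breaks down prostaglandins, stood at -1.45, -1.49 and -1.45 in BALB/c and at 2.20, 3.36 and 0.50 in SPRET/EiJ. Sorl1, a sorting receptor, differed by -3.30. On no BALB/c array above background were Tescl, at least 17.6-fold higher in SPRET/EiJ, Raet1c, a stress ligand for natural killer cells from a family of close copies, at least 2.19-fold, and Elapor2, at least 1.71-fold.

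**Figure D2:**
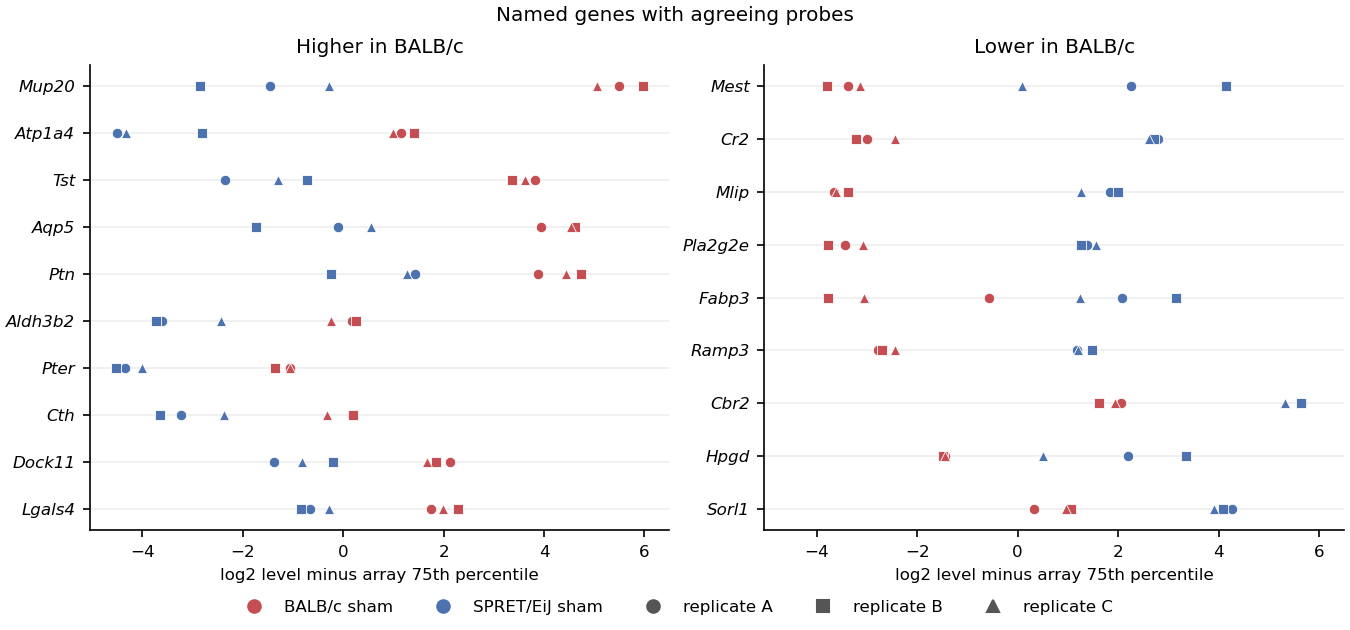
Log2 level relative to the array's 75th percentile (x axis) of 19 of the 20 coding genes described by that rule, 1 symbol per mouse. The strains are separate in every row, as the rule required, and the spread of Mest, Fabp3 and Hpgd within a strain is the widest among the lower genes. Levels are not comparable between rows.

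Gene lists were then counted by whether every usable probe of a member was called, also where the member had only 1. Over all 22031 measured coding genes this gave 11.1% higher and 10.3% lower in BALB/c, with a median difference of -0.04, and a list is read against those shares. The members with 1 probe have no second reading, and most called members are of this kind. Among those named below, Lss, Elovl6, Cox8b, Acta2, Ccl6, C2, Mmp3, Hsd11b1, Aldh1a7 and Ephx2 were each read by 1 probe. Agreement of 2 or more probes was found for 2 of the 10 genes called lower in cholesterol synthesis. It was found for 1 of 15 called cytochrome P450 and steroid enzymes and for 0 of 5 called MHC class II genes.

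Cholesterol synthesis had 10 of 23 measured genes called lower in BALB/c and 0 higher, and the median difference was -1.06. This pathway turns acetyl-CoA into sterol through mevalonate and is switched on by SREBP2 when cells run short of cholesterol. Hmgcs1, which makes HMG-CoA, read -2.22, -1.29 and -1.71 in BALB/c and 3.38, 3.52 and 2.49 in SPRET/EiJ. Its probes differed by -3.48 and -6.25, the latter with no BALB/c array above background, where the bound was 32.5-fold (adjusted p = 8.85e-04). Later steps followed: Lss, the lanosterol synthase, differed by -3.27, Dhcr7 by -2.25, Fdps by -2.11, Nsdhl by -1.68 with both probes called and Msmo1 by -1.06. Insig1, the sterol sensor that holds SREBP back, was lower by -1.28 and Acat2 by -1.06. Every BALB/c mouse lay below every SPRET/EiJ mouse for Hmgcs1 and Lss, which the rule for naming leading list members required. Srebf2 itself was not called, with probes at -1.06 and 1.84.

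The direction of these genes was also found in irradiated mice, which share no array with the sham mice. There the list had a median of -0.86, all 10 called genes had the same sign, and 4 of the 10 passed the test again. Such counts, here and for the lists below, are read beside those of all genes called with agreeing probes, although many list members had only 1 probe. Of the genes with agreeing probes, 205 of 210 higher and 209 of 211 lower genes kept the sign, and 82 and 62 were called again. The counts of cholesterol synthesis were near those, whereas the lists below varied. Leaving out 1 array at a time left 6 to 11 genes called lower, the fewest without SPRET/EiJ replicate A. The promoter of Hmgcs1 carries a sterol regulatory element, the site SREBP binds, searched as TCACNCCAC on either strand from 250 bases before to 50 after the start site. Among the 15 genes of the list with a RefSeq promoter window (GRCm38.p6) it was the only match, against 1.44% of all 27025 genes with a window. The match is shown in capitals, 5′ to 3′, in the reference strain's sequence.
Hmgcs1, chr13:119690184-119690243, plus strand: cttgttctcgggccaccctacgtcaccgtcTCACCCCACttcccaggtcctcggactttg

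Of 30 measured genes of fatty acid and triglyceride synthesis, 6 were called lower and 1 higher in BALB/c, with a median of -0.78. Scd1, the desaturase that makes oleate, read 8.30, 8.14 and 7.61 against 9.26, 9.49 and 9.37, a difference of -1.36 (adjusted p = 0.00952). Elovl6, which lengthens palmitate, differed by -2.48, Scd2 by -2.38, Acss2, which activates acetate, by -2.46 with both probes called, and the malic enzyme Me3 by -1.41. Mogat2, which re-esterifies monoacylglycerol, was lower by -3.22 while its relative Mogat1 was higher by 2.93. The central enzymes Fasn and Acaca were not called, at -0.94 (adjusted p = 0.0929) and -0.29. Fatty acid oxidation and ketone metabolism had 7 of 30 genes called lower and 0 higher, with a median of -0.48, among them Acot2 (-4.34), Eci2 (-2.33) and Hadh (-1.35). In LDIR mice the medians of these lists were -0.39 and -0.42.

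Brown and beige adipocyte markers split. These cells burn fat for heat through the uncoupling protein Ucp1. Of 18 markers, 7 were called lower and 3 higher in BALB/c, and the median was -1.09. Ucp1 read 1.64, 0.08 and -0.36 in BALB/c and 4.59, 3.51 and 2.74 in SPRET/EiJ, a difference of -3.16 (adjusted p = 0.0213). Elovl3, an elongase of active brown fat, lay at -3.35, -1.06 and -3.26 against 0.38, 1.12 and 1.42, and Plin5, a lipid droplet protein, at 1.63, 1.65 and 1.03 against 5.43, 5.23 and 4.40. Fabp3, Acot2, the channel Otop1 (-2.86, both probes called) and Kcnk3 (-1.41) were also lower. Against them, the respiratory subunit Cox8b, known from brown fat and muscle, was higher at 6.21, 5.99 and 5.53 against 1.53, -1.07 and 1.29, a difference of 5.33 (adjusted p = 0.00397). Cox7a1 and the fatty acid transporter Slc27a2 were higher by 1.11 and 3.19. The regulators Ppargc1a (-0.20) and Cidea (-0.51) were not called. Each of the 10 called markers had the same sign in LDIR mice, and 5 were called there too.

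White adipocyte markers were balanced, with 3 higher and 2 lower of 26 and a median of -0.04. Adipoq, Fabp4 and Pparg differed by 0.40, 0.07 and 0.05. Plin1, the coat protein of the lipid droplet, was the exception at 6.13, 6.21 and 5.74 against 1.42, 3.12 and 1.97, read by 1 probe. Acvr1c, an activin receptor of adipocytes, was lower by -2.26 with both probes, and the fatty acid translocase Cd36 by -1.58. Lep, leptin, ranged from 1.92 to 5.21 in SPRET/EiJ and from 0.81 to 1.92 in BALB/c and did not pass the test (adjusted p = 0.149). Respiratory chain genes, with 1 higher and 2 lower of 70, had a median of -0.20.

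**Figure D3:**
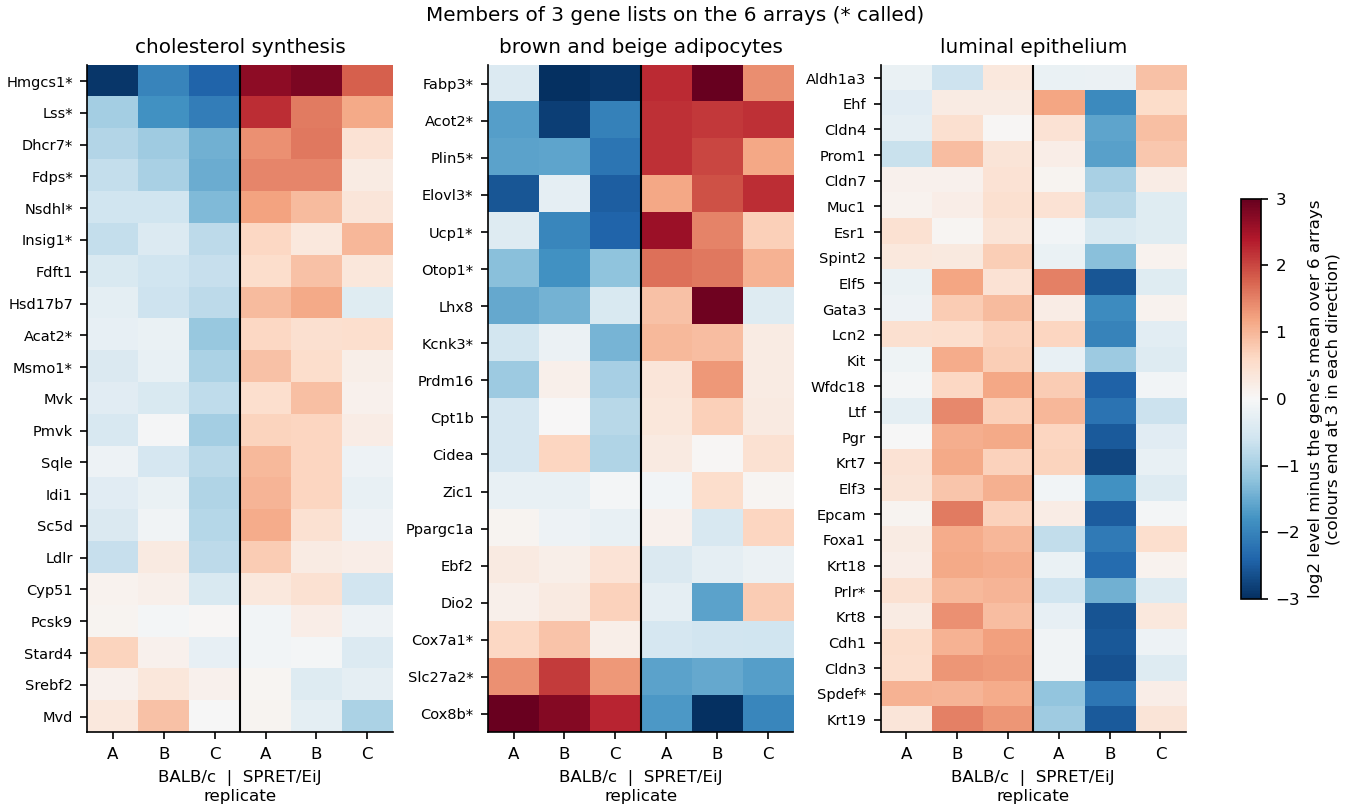
Log2 level of members minus their mean over the 6 arrays (colour) for cholesterol synthesis, brown and beige adipocyte markers and luminal epithelium, with mice as columns and a star for members called. The called cholesterol genes were below their mean in all 3 BALB/c mice, whereas most luminal genes were lowest in SPRET/EiJ replicate B.

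Luminal epithelium markers leaned towards BALB/c but few passed the test. Of 26, 25 had a difference above 0 with a median of 1.21, and 2 were called: Prlr, the prolactin receptor, at 3.12, 3.64 and 3.68 against 2.07, 1.22 and 2.29 (difference 1.62, adjusted p = 0.0299), and the transcription factor Spdef at 2.10. SPRET/EiJ replicate B stood apart here. Krt8 was 2.81, 0.47 and 3.37 in SPRET/EiJ and 3.32, 4.44 and 3.98 in BALB/c, and the list's median, after centring each gene, was -2.05 in that mouse, -0.07 to 0.00 in the other SPRET/EiJ mice and 0.16 to 0.99 in BALB/c. Without replicate B the median was 0.53, and the number called ranged from 0 to 4 as each array was left out. In LDIR mice the list's median was 1.37. Hormone response genes of the gland had 5 called higher and 3 lower of 23 and a median of 0.81. Their centred median was 0.26 to 0.65 in BALB/c, 0.10 and -0.26 in SPRET/EiJ replicates A and C, and -1.22 in replicate B. Wnt4, the local signal downstream of progesterone, and Areg, the ductal EGF ligand, differed by 2.09 and 1.79 without passing (adjusted p = 0.148 and 0.151), and both were lowest in that same mouse.

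Basal and myoepithelial markers showed no common direction, with 2 higher and 1 lower of 17. Acta2, smooth muscle actin, which myoepithelium and vessels use to contract, stood at 4.15, 3.92 and 4.43 against 0.41, 0.07 and 0.95, a difference of 3.69 (adjusted p = 5.40e-04), and the keratin Krt17 was 3.12 higher. Jag2 was lower by -0.76. Krt5, Krt14 and Trp63 were not called. Milk protein genes had 1 of 9 called, Xdh, a coat enzyme of milk fat, which was lower at -2.56. Pericyte and vascular muscle markers had 3 higher of 12, among them the channel Kcnj8 (4.29, with 1 of 3 SPRET/EiJ arrays above background) and desmin, Des (1.5). Of the 12, 6 differed above and 6 below 0, with a median of 0.32, and Des stood at -0.04 in LDIR mice. The endothelial list had 1 higher and 2 lower of 20, with Lyve1, a lymphatic vessel receptor, at -2.0. Fibroblast markers had 0 of 22 called in limma, and the list's median of -0.41 turned to 0.44 in LDIR mice.

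Interferon-stimulated genes, which are induced by type I interferon and restrict viruses, had 10 of 36 called higher and 3 lower, with a median of 0.47. Isg15, a ubiquitin-like modifier, read 0.83, 0.81 and 0.32 in BALB/c and -0.21, -1.29 and -1.12 in SPRET/EiJ, a difference of 1.52 with both probes called (adjusted p = 0.0321). Zbp1, a sensor of nucleic acid, differed by 1.64 with both probes called (adjusted p = 0.00706). By its 1 probe Ifi44 exceeded the SPRET/EiJ level at least 40.7-fold, with no SPRET/EiJ array above background, and so did Ifi44l, at least 6.33-fold. Rsad2, viperin, was higher by 2.31. The antiviral GTPases parted: Mx2 was higher by 1.01 and Mx1 lower at -2.0, -1.48 and -1.43 against 1.34, 0.13 and 0.77 (difference -2.38, adjusted p = 0.00574). Ifi202b, a DNA-binding protein from a cluster of close copies, was lower by -1.91, and Bst2, tetherin, by -1.95. In LDIR mice the median was 0.76, all 13 called genes had the same sign, and 5 were called. Leaving out 1 array at a time left 5 to 8 called higher, with 5 or 6 in each case but the one without SPRET/EiJ replicate A.

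The response element through which interferon acts was searched as GAAA, any 2 bases and again GAAA, on either strand in the same promoter windows. It was found in 12 of the 25 list members with a window (48.0%) and in 3.99% of all 27025 genes. Among called members with a window, 4 of 7 held it: Isg15, Rsad2 and Stat2, higher in BALB/c, and Bst2, lower. Their matches are in capitals, 5′ to 3′ along each gene's strand, and overlapping matches in Isg15 and Bst2 run together.
Isg15, chr4:156200867-156200926, minus strand: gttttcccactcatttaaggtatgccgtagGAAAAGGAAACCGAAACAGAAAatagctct
Rsad2, chr12:26456543-26456602, minus strand: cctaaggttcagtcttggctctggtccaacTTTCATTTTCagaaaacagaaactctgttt
Stat2, chr10:128270248-128270307, plus strand: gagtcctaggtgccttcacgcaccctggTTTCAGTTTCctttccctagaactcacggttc
Bst2, chr8:71537573-71537632, minus strand: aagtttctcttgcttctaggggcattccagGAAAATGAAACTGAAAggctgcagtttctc

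Interferon-gamma GTPases and antigen presentation genes were also called higher more often than lower. The interferon-gamma GTPases, which attack intracellular parasites, had 4 higher and 1 lower of 17 and a median of 0.64, with Gbp7 at 1.40, Tgtp1 at 1.38 and Gbp9 at -0.64. MHC class II had 5 of 12 higher and 0 lower. H2-Eb1, a beta chain of the class II dimer, read 5.86, 5.76 and 5.45 against 3.56, 3.67 and 3.98 (difference 1.95, adjusted p = 0.00168), H2-Ea 0.30, 0.12 and -0.51 against -2.41, -1.97 and -1.21, and Ciita, their master regulator, was higher by 1.88. Without 1 array, 2 to 4 of the 5 were called, with 4 only without SPRET/EiJ replicate C. In LDIR mice 0 of these 5 were called in limma, and the list's median was -0.31, against 0.35 in sham mice. H2-Eb2, at least 2.23-fold higher in sham BALB/c, had a difference of -0.25 there. MHC class I and peptide loading had 5 higher and 2 lower of 28, among them Mr1 (2.77) and H2-Q8 (2.51). H2-T3, above background on no BALB/c array, was at least 4.41-fold lower. Genes of the MHC are variable copies of each other, and most of these were read by 1 probe, so which member was measured is uncertain.

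Among the leukocyte lists, granulocyte genes were called lower most often. Of 16 granulocyte markers, 6 were called lower and 1 higher in BALB/c. The list's median was -0.67, against -0.26 in LDIR mice, where all 7 called markers had the same sign and 2 were called again. Mpo, myeloperoxidase, stood at -4.21, -3.44 and -5.58 against 0.72, 0.54 and 0.59, a difference of -5.03 with probes at -3.25 and -6.81 (adjusted p = 0.0429), and the antimicrobial peptide Camp was lower by -0.96 with both probes. Ear1 and Ear2, eosinophil ribonucleases that are close copies, were lower by -1.26 and -1.79, and the gelatinase Mmp9, above background on no SPRET/EiJ array, was at least 4.67-fold higher. Without 1 array, 1 to 3 of the 6 were called, the fewest without SPRET/EiJ replicate C. T-cell markers had 3 of 19 called higher, and 0 of the 3 had the same sign in LDIR mice, where the list's median was -1.60 against 0.36 in sham mice. For B cells the medians were -0.23 and -1.28. Macrophage markers had 3 higher and 2 lower of 25. By 1 probe the receptor Fcgr1 exceeded its SPRET/EiJ level at least 9.25-fold and the lysozyme Lyz1 lower by -1.40. Mast cell and natural killer lists had 3 higher and 0 lower each, of 14 and 10. Their medians were -0.19 and 0.38, and 8 of the 14 mast cell markers had a difference below 0. Mrgprb2, a mast cell receptor above background on no SPRET/EiJ array, was at least 1.86-fold higher, and the granzyme Gzma differed by 2.15.

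Chemokines were called in both directions, 6 higher and 7 lower of 31. Ccl6 was higher at 4.06, 3.31 and 3.70 against -0.48, -0.04 and -0.55, and its difference of 4.05 was 5.38 in LDIR mice. Cxcl10 gave 0.12 and 2.69 with its probes and Ccl25 0.59, 1.88 and 2.46, so neither had all probes called. With all probes called were Cxcl9 at 1.16, Ccl27a at -2.42 and Ccl19, which draws lymphocytes to lymphoid tissue, at -1.73. Complement and acute phase genes had 9 lower and 3 higher of 33, and Masp1, which starts the lectin pathway, was called with both probes at -3.62, 1 of them above background on no BALB/c array. C2 was higher at 4.41, 4.53 and 4.40 against -0.04, -0.45 and 1.04, and Cfi, which cleaves C3b, was at least 10.0-fold lower with no BALB/c array above background. In LDIR mice the list's median was 0.16, against -0.58 in sham mice, while all 12 called genes had the same sign.

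**Figure D4:**
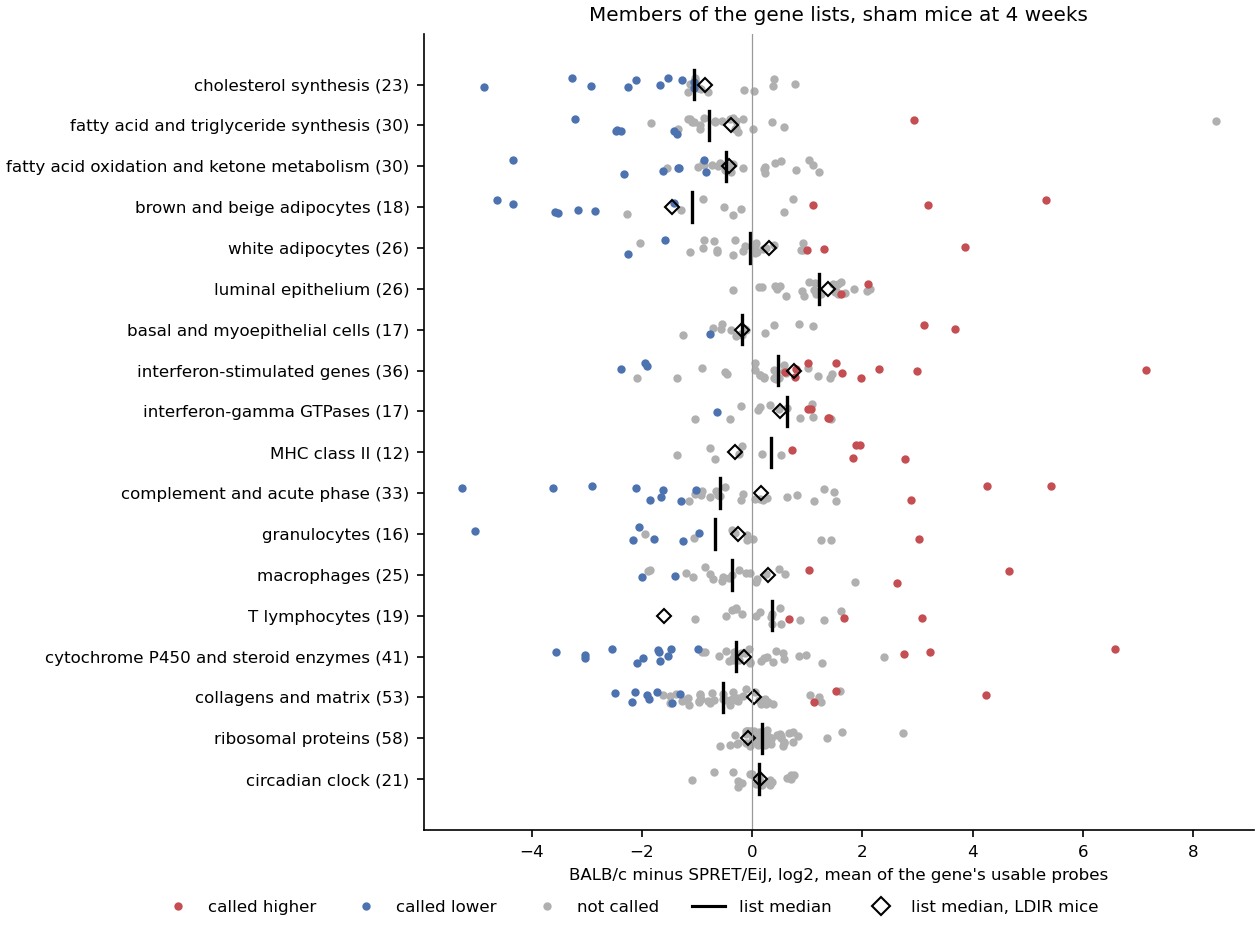
Difference between BALB/c and SPRET/EiJ sham mice on the log2 scale (x axis) for each measured member of 18 gene lists (rows, with the number of members), coloured where called, with the median as a bar and the median in LDIR mice as a diamond. Cholesterol synthesis lies to the left and luminal epithelium to the right of 0 in both sets of mice, and the T lymphocyte diamond lies at -1.60 against a bar at 0.36.

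Among detoxifying enzymes, cytochrome P450 and steroid enzymes had 12 called lower and 3 higher of 41. Hsd11b1, which regenerates active glucocorticoid, read 3.04, 3.98 and 2.43 in BALB/c and 5.97, 7.0 and 5.59 in SPRET/EiJ (difference -3.04, adjusted p = 0.0101). Cyp1a1, induced through the aryl hydrocarbon receptor, was lower by -3.56, Cyp7b1, an oxysterol hydroxylase, by -3.04, and the epoxide hydrolase Ephx1 by -1.69 with both probes. Aldh1a7 was higher by 6.59 and the soluble epoxide hydrolase Ephx2 by 3.23. All 15 had the same sign in LDIR mice and 9 were called. Glutathione S-transferases had 6 lower and 2 higher of 24, with Gsta2 at least 12.7-fold lower (no BALB/c array above background), Mgst2 at -2.24 and Gstt2 at 2.64, in a family whose close copies make single members uncertain. Of 28 antioxidant enzymes, 4 were higher, among them Txn2 (1.55, both probes) and Gclc (2.60), the first enzyme of glutathione synthesis, and 2 were lower, Nqo1 (-1.71) and Prdx3 (-0.94).

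Collagens and matrix had 8 lower and 3 higher of 53, and the list's median of -0.52 in sham mice was 0.04 in LDIR mice. Col23a1 was lower by -2.49 with 3 probes and Mfap4 by -2.18, whereas the stromelysin Mmp3 was higher at 2.22, 2.30 and 2.42 against -1.94, -2.42 and -1.46. The S100 calcium-binding proteins had 4 lower and 1 higher of 15. S100a4 and S100a16 were lower with both probes, by -1.42 and -0.70. S100b was lower by -8.01, read by 1 probe and so without a second reading. S100g was at least 11.1-fold higher, with no SPRET/EiJ array above background and with BALB/c levels of -4.21, -1.07 and -0.96. Its measured difference of 5.60 was 2.29 in LDIR mice and 1.13 within slide 3. Wnt, hedgehog and TGF-beta ligands had 4 higher and 4 lower of 38, with Wif1 at -2.63 and Wnt2b at least 3.88-fold higher, above background on no SPRET/EiJ array. Of the cornified epidermis genes, 4 of 14 were higher, led by Sbsn at 4.71, and Krt79 was lower by -1.91.

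Among the radiation and growth lists, heat shock proteins were called lower in BALB/c more often than all genes, with 4 of 24. End-joining genes called lower were only slightly above the share of all genes. The same held for p53 targets and proliferation genes called higher. These lists rest on few called genes, and their excess over the share of all genes was not tested. In the other direction each of these lists lay below the share of all genes. Ribosomal proteins and circadian clock genes lay below the shares of all genes in each direction. Immediate early genes, with 9.1% called higher, were near the share of all genes in that direction. Of the 58 ribosomal proteins, 40 had 2 or more usable probes. Over all coding genes with 2 or more usable probes the shares were lower, at 3.98% higher and 4.00% lower in BALB/c. End-joining genes had 0 higher and 2 lower of 16, Xrcc4 (-0.79) and Dntt (-0.69). Prkdc, the catalytic subunit of DNA-PK, read -0.80, -0.97 and -1.17 against -1.05, -0.62 and -1.03 and did not pass (difference -0.08, adjusted p = 0.822). Of 29 p53 targets, 4 were higher, with Plk2 at 1.90, and 0 lower. Proliferation genes had 4 higher and 2 lower of 30, with Pcna at 1.82 and Mcm7 at -1.18. Ribosomal proteins (58 genes) and circadian clock genes (21) had 0 called in limma in either direction, with medians of 0.17 and 0.12. Heat shock proteins had 4 lower of 24 and immediate early genes 2 higher of 22.

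The skeletal muscle list had 1 of 26 called higher, Tnnt1 at 1.45 with both probes, 1 of which was above background on no SPRET/EiJ array. BALB/c replicate A stood apart, with a centred median of 1.72 against -0.41 and -0.32 in replicates B and C, and Ckm, muscle creatine kinase, read -0.40 there against -5.17 and -4.14. The part of muscle in the strain difference of Mlip was not tested. Nerve and Schwann cells had 1 higher and 2 lower of 20 and erythrocytes 1 higher and 2 lower of 7.

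Loci of lncRNAs were higher in BALB/c more often than lower. Of 2372 loci with 2 or more usable probes, 182 were called (7.67%), 136 higher (5.73%) and 46 lower (1.94%), so 74.7% of the calls favoured BALB/c, against 49.9% for coding genes. With quantile normalization the loci split into 111 higher and 65 lower, and within slide 3 into 23 and 89. Only 34 of the 136 were above background on all 6 arrays, and 26 were below it on every SPRET/EiJ array, with the rest in between. Of the 46 lower loci, 24 were measured on all 6 arrays. The pairs with the largest agreeing differences measured on all 6 arrays are shown with their probes, 60 bases each, 5′ to 3′ (mm9), because all of their probes moved together.
The locus from 31115515 to 31168433 on chromosome 6, reverse strand, had 3 probes.
chr6:31115516-31115575, minus strand: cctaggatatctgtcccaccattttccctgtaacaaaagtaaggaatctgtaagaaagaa
chr6:31115578-31115637, minus strand: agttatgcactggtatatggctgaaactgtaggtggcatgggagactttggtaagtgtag
chr6:31115638-31115697, minus strand: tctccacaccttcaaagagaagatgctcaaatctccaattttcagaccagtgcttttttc
The locus from 72105642 to 72105922 on chromosome 8, reverse strand, also had 3.
chr8:72105670-72105729, minus strand: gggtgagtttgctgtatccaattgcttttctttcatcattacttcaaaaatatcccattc
chr8:72105730-72105789, minus strand: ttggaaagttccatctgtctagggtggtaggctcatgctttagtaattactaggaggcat
chr8:72105790-72105849, minus strand: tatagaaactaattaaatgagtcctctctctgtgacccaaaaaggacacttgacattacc
The locus from 26835914 to 26845344 on chromosome 14, forward strand, had 2 probes and the one from 26973425 to 26986650 had 3.
chr14:26835948-26836007, plus strand: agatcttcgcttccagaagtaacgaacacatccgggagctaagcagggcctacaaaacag
chr14:26842178-26842237, plus strand: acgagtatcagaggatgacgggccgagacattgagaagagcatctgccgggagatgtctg
chr14:26975551-26975610, plus strand: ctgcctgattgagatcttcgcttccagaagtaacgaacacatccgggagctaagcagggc
chr14:26985410-26985469, plus strand: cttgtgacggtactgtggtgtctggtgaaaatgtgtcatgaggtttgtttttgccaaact
chr14:26985597-26985656, plus strand: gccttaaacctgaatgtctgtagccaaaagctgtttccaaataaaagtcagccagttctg

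The chromosome 6 locus, chr6:31115515-31168433_R, read 1.27, 1.67 and 1.53 in BALB/c and -2.51, -2.94 and -2.40 in SPRET/EiJ. Its 3 adjacent probes differed by 3.91, 4.25 and 4.15 (largest adjusted p = 2.30e-04). The chromosome 8 locus, chr8:72105642-72105922_R, stood at 2.07, 2.95 and 2.26 against -1.69, -3.01 and -1.96, with probes from 3.77 to 5.23 (adjusted p = 0.00146). Lower in BALB/c were chr14:26835914-26845344_F, at -4.19, -4.60 and -4.26 against -0.33, -0.65 and -0.56, and chr14:26973425-26986650_F, at -0.36, -0.74 and -0.51 against 2.99, 3.14 and 2.74. The latter loci are not independent: the probes at 26835948 and 26975551 share a run of 49 bases, and they differed by -3.28 and -3.49. The coding gene Anxa11 was also lower in BALB/c, by -2.70 with both probes. Whether the probes of the chromosome 14 loci read a coding mRNA such as that of Anxa11 was not tested, so they may not measure lncRNAs. In LDIR mice the differences of the 4 loci were 3.87, 3.70, -3.77 and -3.22.

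The differences were then read in irradiated mice of both strains. Of the 210 coding genes higher in sham BALB/c, every probe of 205 had the same sign between LDIR groups and every probe of 82 was called, and their median difference was 1.54 against 1.78 in sham mice. Of the 211 lower genes, 209 kept the sign, 62 were called, and the medians were -1.20 and -1.56. Taken alone, the LDIR mice gave 113 coding genes higher (2.12% of 5328) and 79 lower (1.48%). No probe had a strain difference that changed with LDIR at an adjusted p under 0.05 (limma interaction term, 0 of 55680 probes), 1967 had an unadjusted p under 0.05, and the smallest adjusted p was 0.377. Every array left out in turn moved these counts by more than 1.5 times, to 32 to 206 higher and 21 to 267 lower, with the most calls without SPRET/EiJ LDIR replicate A. The LDIR BALB/c mice at 4 weeks lay on slide 2 and the LDIR SPRET/EiJ mice on slide 3, so slide and strain cannot be told apart there either. Within slide 3, BALB/c LDIR replicates B and C at 8 weeks were set against the same SPRET/EiJ sham mice, and the medians of the higher and lower genes were 1.57 and -1.55. The genes had been chosen on those SPRET/EiJ arrays, so these medians are no independent check. That comparison also mixes strain with radiation and time, and its BALB/c mice had more lymphoid and muscle RNA, with list medians of 3.17 for T cells and 3.25 for muscle.

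**Figure D5:**
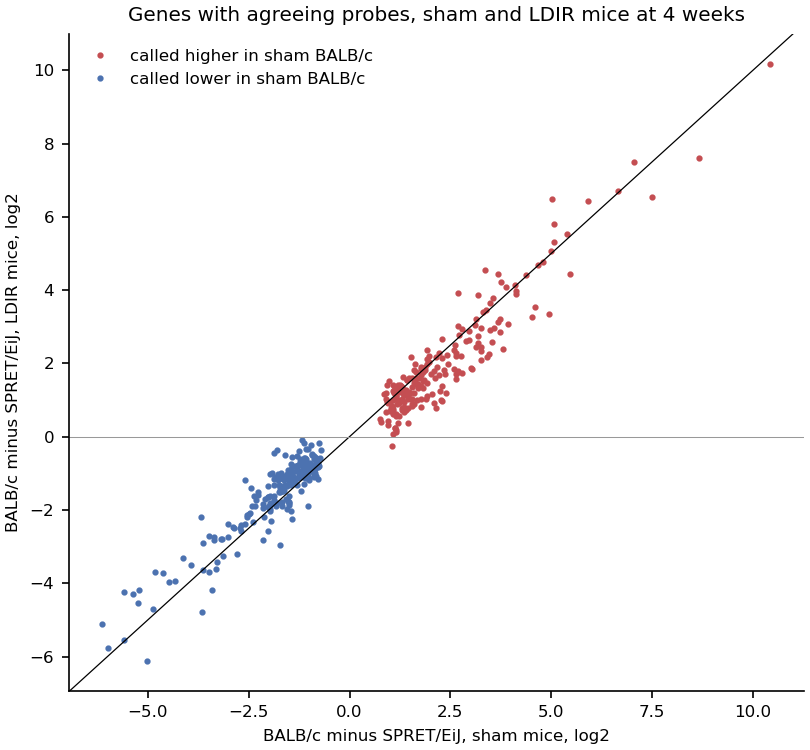
Difference between BALB/c and SPRET/EiJ on the log2 scale in sham mice (x axis) against that in LDIR mice (y axis) for the 421 coding genes with agreeing probes in sham mice, each the mean of its probes. Points lie near the diagonal, with LDIR medians of 1.54 and -1.20 against 1.78 and -1.56, and the choice of genes was made on the x axis.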

How the data were processed

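Total RNA of 24 mammary glands was hybridised in 1 colour to Agilent mouse arrays, 8 to a slide. The deposited scanner files hold, per the file headers, an intensity for each spot with background subtracted. The authors also deposited log2 values normalized to the 75th percentile, used as an alternative. Here the log2 intensity minus the array's 75th percentile was taken from spots that are not controls, leaving out 3777 outlier spots of 59305 per array over the 24 arrays. Spots of a probe were averaged, giving 55681 probes, of which 37470 were usable. Coding probes were named through RefSeq (GRCm38.p6) by accession (27235), symbol (3576) or synonym (565), and 8054 kept the file's name. Positions are those of the files (mm9). Over the 6 arrays 65.5% to 71.5% of spots were well above background, and 3 arrays per strain limit the precision: an exact two-sided permutation test of 3 against 3 gives no p below 0.1.

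The strain difference was fitted in limma 3.58.1 (R 4.3.3, lmFit and eBayes, no covariates, 6 arrays). The members and gene lists were chosen with earlier results of these data known. Named genes were the 10 per direction with the largest difference in their least changed probe among agreeing genes measured on all arrays, up to 5 bounded ones per direction, leading list members, the 5 widest opposite pairs and the largest lncRNA loci. The ranked coding genes and leading list members also had to have strains that did not overlap for any probe. Symbols that are only clone, RIKEN, Gm or accession numbers come after the others. A few further members named for their known role (Adipoq, Krt18, Fasn, Ucp1 and the like) were chosen after their values were seen. On simulated data with 200 of 55637 probes changed by a log2 change of 2, 45.0% were recovered with 5 false calls. The simulation scored single probes and changed far fewer of them than were called between the strains. Its figures therefore do not give the recovery or the error of the gene calls. Replicate letters did not pair the strains. Alternatives were normexp (offset 50), quantile normalization, the authors' log2 values, outliers kept, other filters, the methods' t-test and threshold, blocks for replicate and slide, all 24 arrays, other BALB/c groups, non-overlapping probes (added after seeing the data) and each array left out. A few named genes are not reported here, though counts and medians include them. Figures were drawn with matplotlib 3.10.9.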

Additional observations from a re-analysis of the deposited data

How the results depend on the processing

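Among values of single genes under the alternatives, 2832 kept their direction and side of the threshold, 729 kept the direction but no longer passed, 2 newly passed and 12 changed sign. The coding genes with agreeing probes, 210 higher and 211 lower in BALB/c, numbered 92 and 100 by the methods' t-test, 75 and 78 at the methods' threshold, 14 and 14 in 1 fit of all 24 arrays with slide as a block, and 95 and 172 within slide 3. The higher genes numbered 132 with probes above background on all 6 arrays and 118 against BALB/c sham mice at 8 weeks. Without 1 array there were 106 to 149 and 122 to 167. The lncRNA loci, 136 higher and 46 lower, numbered 72 and 25 with normexp, 63 and 20 by the t-test, 61 and 19 at the methods' threshold, 12 and 5 with slide as a block, and 23 and 89 within slide 3, so that within slide 3 more loci were lower than higher. The higher loci numbered 66 with probes above background on all 6 arrays and 42 against BALB/c sham mice at 8 weeks, and the lower loci 87 against those at 2 weeks. Without 1 array these were 79 to 108 and 23 to 41. In LDIR mice the 113 higher and 79 lower coding genes became 46 and 31 at the methods' threshold, and 32 to 206 and 21 to 267 without 1 array. The cause of these changes was not tested.

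The sign changed within slide 3 for Jag2 (0.26), Cnp (0.10), Ccl19 (0.73), Gbp9 (0.35) and Plk1 (0.24). It changed against BALB/c sham mice at 8 weeks for Jag2 (0.49), Siglecf (0.18), Plk1 (0.40) and Hspb7 (0.25), and with slide as a block for Robo4 (-0.17), Ccl19 (0.86) and Plk1 (0.43).

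The replicate letters did not pair the strains: the correlations of same-letter deviations were -0.03, -0.017 and 0.119. With the replicate block 140 coding genes were higher and 161 lower, and 98 and 31 lncRNA loci. The signal limits the dimmer strain: 15 of the 210 higher and 4 of the 211 lower coding genes have only a bound.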
